A study of Homo sapiens with 2 samples.

Results

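The genes described here are 10 that mark a shift of epithelial cells towards a mesenchymal state, 5 transcription factors (ZEB1, ZEB2, SNAI1, SNAI2 and TWIST1) and 5 structural or secreted proteins (VIM, FN1, TAGLN, SPARC and S100A4). They were taken by name from the 16399 genes with a value, matched through their Entrez IDs, and all 10 were found. The study sought genes downstream of PKP2, plakophilin 2, a plaque protein of desmosomes. Total RNA was sequenced from A549 cells, which derive from a human lung adenocarcinoma, as 1 library of cells that overexpress SFB-tagged PKP2 and 1 library of vector cells. Both cultures were at passage 5, and whether either was grown from a single clone is not given in the sources used here. Since each group is a single library, nothing below has a replicate check or a p-value, and every difference is one between libraries, not conditions. In such bulk RNA, fewer cells of a type and less RNA per cell cannot be told apart.

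Epithelial cells hold to one another through cadherin junctions and carry keratin filaments. In an epithelial to mesenchymal transition, a small set of DNA-binding repressors lowers junction genes such as CDH1, while the cell gains vimentin filaments, contractile proteins and a fibronectin matrix. ZEB1 and ZEB2 are paired zinc-finger repressors, SNAI1 (Snail) and SNAI2 (Slug) are zinc-finger repressors of the Snail family, and TWIST1 is a basic helix-loop-helix factor. All of them bind E-boxes, short motifs of the form CANNTG, and the zinc-finger factors favour CAGGTG. Lung adenocarcinoma lines such as A549 often carry vimentin and keratins together.

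To show where such motifs lie at the members themselves, the promoter windows of the 4 members with at least 400 counts in each library and a window in the RefSeq promoter table (build GRCh38.p14) are printed 5′ to 3′, from 250 bases before to 50 bases after a transcription start. ZEB1 is at chr10:31318966-31319265 on the plus strand, VIM at chr10:17227991-17228290 on the plus strand, FN1 at chr2:215436019-215436318 on the minus strand and S100A4 at chr1:153545757-153546056 on the minus strand. ZEB1 has 7 windows for 7 starts, and the one with the most CAGGTG matches was chosen, so its matches are not typical of the gene's windows, which hold 4 over all 7. Capitals mark CAGGTG on either strand, the cyclic AMP response element TGACGTCA, the CArG box and TATAAA on either strand.
ZEB1: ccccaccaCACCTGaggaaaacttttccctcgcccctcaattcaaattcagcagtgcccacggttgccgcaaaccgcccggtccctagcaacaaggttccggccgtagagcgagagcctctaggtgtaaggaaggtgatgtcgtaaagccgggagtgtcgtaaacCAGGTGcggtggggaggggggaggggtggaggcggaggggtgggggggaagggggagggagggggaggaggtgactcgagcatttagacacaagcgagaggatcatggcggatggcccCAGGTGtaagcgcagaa
VIM: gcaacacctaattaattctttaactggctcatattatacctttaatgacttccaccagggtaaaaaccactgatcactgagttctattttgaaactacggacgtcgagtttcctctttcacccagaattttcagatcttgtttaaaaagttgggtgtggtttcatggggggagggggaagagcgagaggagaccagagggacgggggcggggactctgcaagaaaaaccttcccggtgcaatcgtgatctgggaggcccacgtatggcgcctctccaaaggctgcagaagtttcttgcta
FN1: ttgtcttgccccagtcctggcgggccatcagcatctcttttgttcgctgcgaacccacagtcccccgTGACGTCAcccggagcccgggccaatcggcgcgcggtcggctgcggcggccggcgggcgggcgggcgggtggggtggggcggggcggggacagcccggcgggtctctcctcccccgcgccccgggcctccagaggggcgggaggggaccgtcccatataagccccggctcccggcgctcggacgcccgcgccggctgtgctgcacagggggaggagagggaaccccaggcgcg
S100A4: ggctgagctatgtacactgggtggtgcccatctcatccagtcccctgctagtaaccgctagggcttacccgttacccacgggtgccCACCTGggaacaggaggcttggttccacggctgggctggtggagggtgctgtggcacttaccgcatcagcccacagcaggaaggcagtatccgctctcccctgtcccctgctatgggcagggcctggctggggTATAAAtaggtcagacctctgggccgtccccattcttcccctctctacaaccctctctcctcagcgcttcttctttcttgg

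The ZEB1 window holds 3 CAGGTG matches, beginning at -242, -85 and 34 from the start, and the S100A4 window holds 1, at -164. CAGGTG occurs in 20.6% of the 35116 windows of this length and its looser form CANNTG, which includes it, in 68.7%. Neither is found in the VIM or FN1 window. FN1 has TGACGTCA at -183, a motif in 1.85% of windows, and S100A4 has TATAAA at -31, a motif in 11.5%. The CArG box, the site of the serum response factor, is in 1.29% of windows and in none of the 4 printed. A match describes letters only, and no binding was measured.

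The estimated counts summed to 16808842 in the PKP2 library and 16996976 in the vector library, and counts per 1000000 of that total (CPM) are the unit of level below. PKP2 itself was at 268 CPM (4505 counts) in the PKP2 library and 27.3 CPM (464 counts) in the vector library, so the library labelled as overexpressing it had the higher level. That count does not separate the construct from the endogenous gene. Of the epithelial markers, KRT8 had 5416 CPM in the PKP2 library and 5339 CPM in the vector library, while EPCAM had 1.37 CPM in the PKP2 library and 1.47 CPM in the vector library. Of the alveolar lineage markers, NKX2-1 had 1 count in the PKP2 library and 2 in the vector library and SFTPB had 1 and 0, all under the floor of 3 counts (0.178 CPM in the PKP2 library and 0.177 CPM in the vector library), so they do not mark these cells. Differences between the libraries followed transcript length over the whole transcriptome: of 5 equal groups of genes averaging at least 5 CPM, the shortest transcripts (up to 2031 nucleotides) had a median log2 difference of 0.14 and the longest (5948 nucleotides or more) of -0.17. An additive trend on length and GC content accounted for 24.1% of the variance over expressed genes, so each member's value without that trend is given beside its own.

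Neither group of members moved as a block. Among the factors ZEB1 was lower in the PKP2 library and SNAI2 and TWIST1 were higher, and among the effectors FN1 was lower, TAGLN and VIM were higher and S100A4 was level. A gene was taken as expressed where either library gave it 1 CPM or more, which held for all 10 members and for 12820 genes in all. On the scale of log2(CPM + 1), PKP2 minus vector, 3 members (SNAI2, TWIST1 and TAGLN) lay at or above 0.32, a step of 25% upward, against 5.16% of expressed genes. At or below -0.32, a step of 20% downward, lay 2 members (ZEB1 and FN1), against 6.98% of expressed genes. On the same scale no member reached 1.5-fold higher (0.58), which 0.733% of expressed genes did, or 1.5-fold lower, which 0.788% did. The added 1 CPM shrinks the difference of low genes, and SNAI2 passed 0.58 by its plain CPM ratio and with a pseudocount of 0.1. The 95% counting interval of the CPM ratio lay above 1 for 4 members (SNAI2, TWIST1, VIM and TAGLN), against 16.3% of expressed genes, and below 1 for 2 (ZEB1 and FN1), against 19.8%. These intervals cover counting error only.

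**Figure D1:**
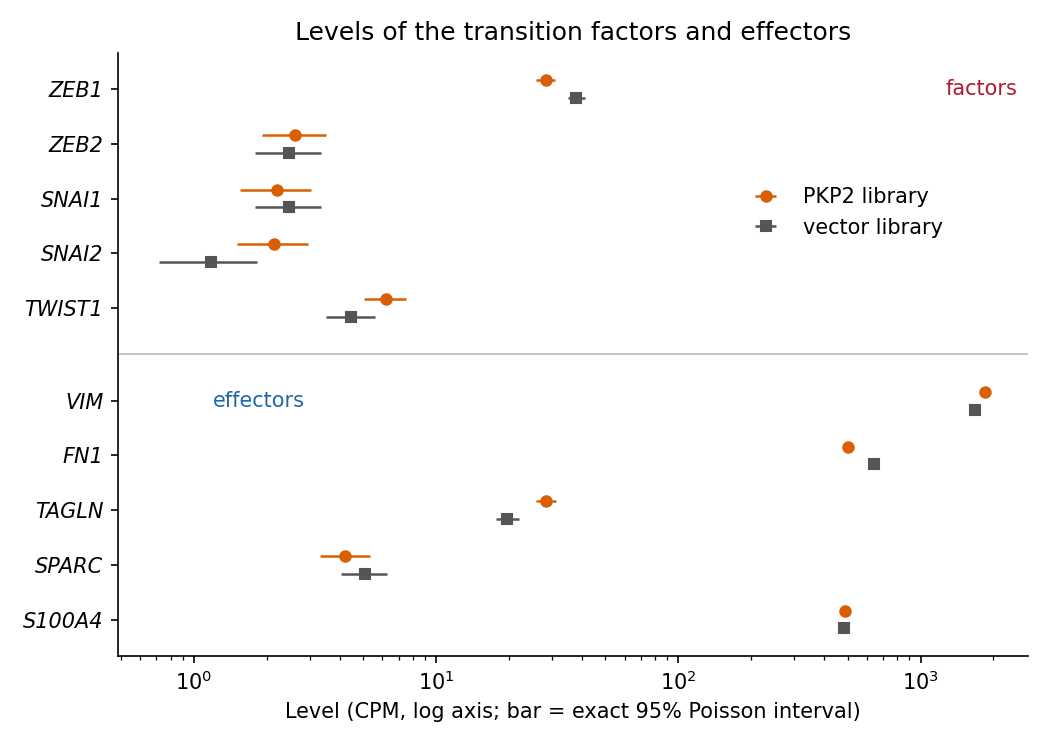
Level of each member in CPM on a log axis, with the PKP2 library (circles) above the vector library (squares) and exact 95% Poisson intervals of the counts as bars. The factors all lie under 40 CPM, and VIM, FN1 and S100A4 lie above 400 CPM in both libraries.

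ZEB1, the most abundant of the factors, had 28.4 CPM (477 counts) in the PKP2 library and 37.9 CPM (645 counts) in the vector library. Its CPM ratio was 0.748, with a counting interval of 0.663 to 0.843. The log2 difference was -0.41, and 3.44% of expressed genes lay at least as far on the lower side. ZEB1 transcripts are long (6267 nucleotides), in the group with a median of -0.17, and without the length and GC trend the difference was -0.24, short of the step of 0.32. The gene (Entrez ID 6935, GRCh38, chromosome 10, 31318495 to 31529814) overlaps the antisense gene ZEB1-AS1 at exons, and since no strand setting is given, reads of the pair cannot be told apart.

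Its paralog ZEB2 (Entrez ID 9839, chromosome 2, 144364364 to 144524583) was far scarcer, and antisense and small RNA genes overlap it at exons. It had 2.62 CPM (44 counts) in the PKP2 library and 2.47 CPM (42 counts) in the vector library. The ratio was 1.06 with an interval of 0.678 to 1.66, so a difference of the size seen for ZEB1 was not detectable at this depth. Without the trend its log2 difference was 0.27 instead of 0.06, its transcript being the longest of the members (9583 nucleotides).

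The Snail family genes were near the limit of 1 CPM. SNAI2 (Entrez ID 6591, chromosome 8, 48917604 to 48921740) had 2.14 CPM (36 counts) in the PKP2 library and 1.18 CPM (20 counts) in the vector library. Its ratio of 1.82 is the largest of the members, but the interval of 1.03 to 3.32 nearly reaches 1. The log2 difference was 0.53 with and without the trend, 0.81 with a pseudocount of 0.1 and 0.21 with a pseudocount of 5. SNAI1 (Entrez ID 6615, chromosome 20, 49982999 to 49988886) had 2.20 CPM (37 counts) in the PKP2 library and 2.47 CPM (42 counts) in the vector library, a ratio of 0.891 with an interval of 0.557 to 1.42. Its log2 difference was -0.12, and -0.26 without the trend. The Snail genes thus stood at nearly the same count in the PKP2 library, whereas SNAI2 was the lower of the pair in the vector library, at 0.973 SNAI2 counts per SNAI1 count in the PKP2 library and 0.476 in the vector library.

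TWIST1 (Entrez ID 7291, chromosome 7, 19020991 to 19117672) had 6.19 CPM (104 counts) in the PKP2 library and 4.47 CPM (76 counts) in the vector library. Its ratio was 1.38 with an interval of 1.02 to 1.89, and its log2 difference was 0.39. Without the trend the difference was 0.25, and with a pseudocount of 5 it was 0.24, both short of the step. An antisense gene overlaps TWIST1 at exons.

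Ratios between members within a library do not depend on how the libraries are scaled. They do keep the length and GC trend, and no pair ratio was computed without it. ZEB1 has a far longer transcript (6267 nucleotides) than TWIST1 (1666) or SNAI2 (2428). For each ZEB1 count there were 0.218 TWIST1 counts in the PKP2 library and 0.118 in the vector library, a change of 1.85-fold with an approximate 95% interval of 1.35 to 2.54 (normal on the log scale, counting error only). SNAI2 to ZEB1 changed 2.43-fold, with an interval of 1.39 to 4.26. Each pair was ordered with the gene of larger PKP2 over vector ratio on top, so no change can lie below 1. Of the 10 pairs among the factors, 3 had an interval above 1, the third being SNAI2 to SNAI1. No share over all gene pairs was computed, so the pair counts here and below have no background. Pairs share genes and are not independent.

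**Figure D2:**
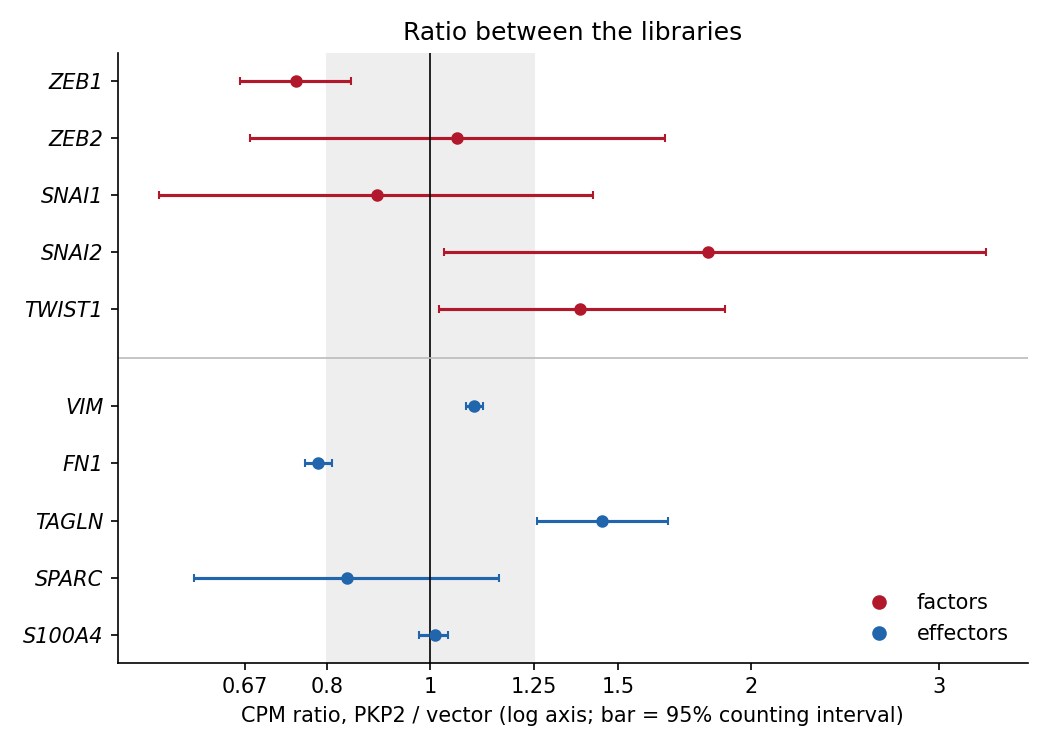
CPM ratio of the PKP2 over the vector library for each member on a log axis, with exact 95% counting intervals, factors in red above effectors in blue; the grey band spans 20% lower to 25% higher. ZEB1 and FN1 lie left of 1 with intervals that exclude it, and SNAI2, TWIST1, VIM and TAGLN lie right of it.

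Per kilobase of the longest protein-coding transcript, ZEB1 and TWIST1 were the leading factors. In the PKP2 library ZEB1 had 4.53 and TWIST1 3.71 CPM per kilobase, with overlapping counting intervals of 4.13 to 4.95 and 3.03 to 4.5. In the vector library ZEB1 had 6.06 and TWIST1 2.68 CPM per kilobase, with intervals of 5.60 to 6.54 and 2.11 to 3.36 that do not overlap. ZEB1 made up 42.3% of the factors' summed level per kilobase in the PKP2 library and 55.3% in the vector library, while TWIST1 made up 34.7% in the PKP2 library and 24.5% in the vector library. SNAI1 followed at 1.31 CPM per kilobase in the PKP2 library and 1.47 in the vector library, then SNAI2 at 0.882 and 0.485 and ZEB2 at 0.273 and 0.258. SNAI1 and SNAI2 overlapped in their intervals in the PKP2 library (0.919 to 1.80 and 0.618 to 1.22) and not in the vector library (1.06 to 1.98 and 0.296 to 0.748). In plain CPM their vector intervals did overlap, at 1.781 to 3.34 for SNAI1 and 0.7187 to 1.817 for SNAI2. Overlap in 1 library and not in the other does not measure a change between them. The levels per kilobase rest on the transcript chosen for length.

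Among the effectors, vimentin (VIM, the intermediate filament protein of mesenchymal cells) was one of the most abundant transcripts of the line. VIM (Entrez ID 7431, chromosome 10, 17228259 to 17237593) had 1845 CPM (31016 counts) in the PKP2 library and 1677 CPM (28512 counts) in the vector library, rank 37 and rank 39 of the genes with a value. The ratio of 1.10 had an interval of 1.08 to 1.12, and 23.4% of expressed genes lay at least as far on the higher side. VIM transcripts fall in the shortest length group, whose median was 0.14, the same as the log2 difference of VIM, and without the trend its difference was 0.03. The antisense gene VIM-AS1 overlaps it at exons.

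FN1 (Entrez ID 2335, chromosome 2, 215360440 to 215436172) encodes fibronectin, the matrix glycoprotein that integrins bind. It had 503 CPM (8461 counts) in the PKP2 library and 641 CPM (10893 counts) in the vector library. The ratio was 0.785 with an interval of 0.763 to 0.808, the log2 difference was -0.35, and 5.61% of expressed genes lay at least as far on the lower side. FN1 transcripts are in the longest group (8905 nucleotides), and without the trend the difference was -0.22, no longer past the step. The annotation places no other gene across FN1.

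TAGLN (Entrez ID 6876, chromosome 11, 117199321 to 117204782) encodes transgelin, an actin-binding protein of smooth muscle and of cells in transition. It had 28.4 CPM (477.73 estimated counts) in the PKP2 library and 19.6 CPM (333.7 estimated counts) in the vector library. Its ratio was 1.45 with an interval of 1.26 to 1.67, and its log2 difference was 0.51 as measured and 0.41 without the trend. In all, 1.18% of expressed genes lay at least as far on the higher side. The count is fractional. PCSK7, a proprotein convertase gene on the opposite strand, overlaps TAGLN at exons and was looked at for that reason after the values were seen. PCSK7 had 464.27 estimated counts in the PKP2 library and 491.3 in the vector library, and the sum of the pair was a whole number in each, 942 and 825 in that order. The pair's summed ratio was 1.15, with an interval of 1.05 to 1.27. TAGLN took 50.7% of the pair's counts in the PKP2 library and 40.4% in the vector library, and how much of that share reflects the division of common reads was not tested.

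SPARC and S100A4 did not differ detectably. SPARC (Entrez ID 6678, chromosome 5, 151661096 to 151687165), which encodes the collagen-binding matricellular protein osteonectin and overlaps an antisense gene at exons, had 4.22 CPM (71 counts) in the PKP2 library and 5.06 CPM (86 counts) in the vector library, with a ratio of 0.835 and an interval of 0.601 to 1.16. Its log2 difference was -0.21, and -0.19 without the trend. S100A4 (Entrez ID 6275, chromosome 1, 153543613 to 153550136), a calcium-binding protein tied to cell motility, had 486 CPM (8173 counts) in the PKP2 library and 483 CPM (8212 counts) in the vector library. Its ratio of 1.01 had an interval of 0.976 to 1.04. Its transcript is the shortest of the members (600 nucleotides), and without the trend its log2 difference was -0.24 instead of 0.01.

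Per kilobase the effectors spanned a far wider range than the factors. VIM had 988 CPM per kilobase in the PKP2 library and 898 in the vector library, and S100A4 had 810 and 805, in that order. FN1 followed at 56.5 and 72.0, TAGLN at 13.1 and 9.06, and SPARC at 1.14 and 1.37, a level among those of the Snail genes. Within libraries, VIM to FN1 changed 1.40-fold (1.36 to 1.45), with 3.67 VIM counts per FN1 count in the PKP2 library and 2.62 in the vector library. TAGLN to FN1 changed 1.84-fold (1.60 to 2.12). Of the 10 effector pairs, 7 had an interval above 1, and 3 pairs with SPARC did not. SPARC has the fewest counts of the effectors, 71 in the PKP2 library and 86 in the vector library. This count of pairs has no share over all gene pairs beside it.

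**Figure D3:**
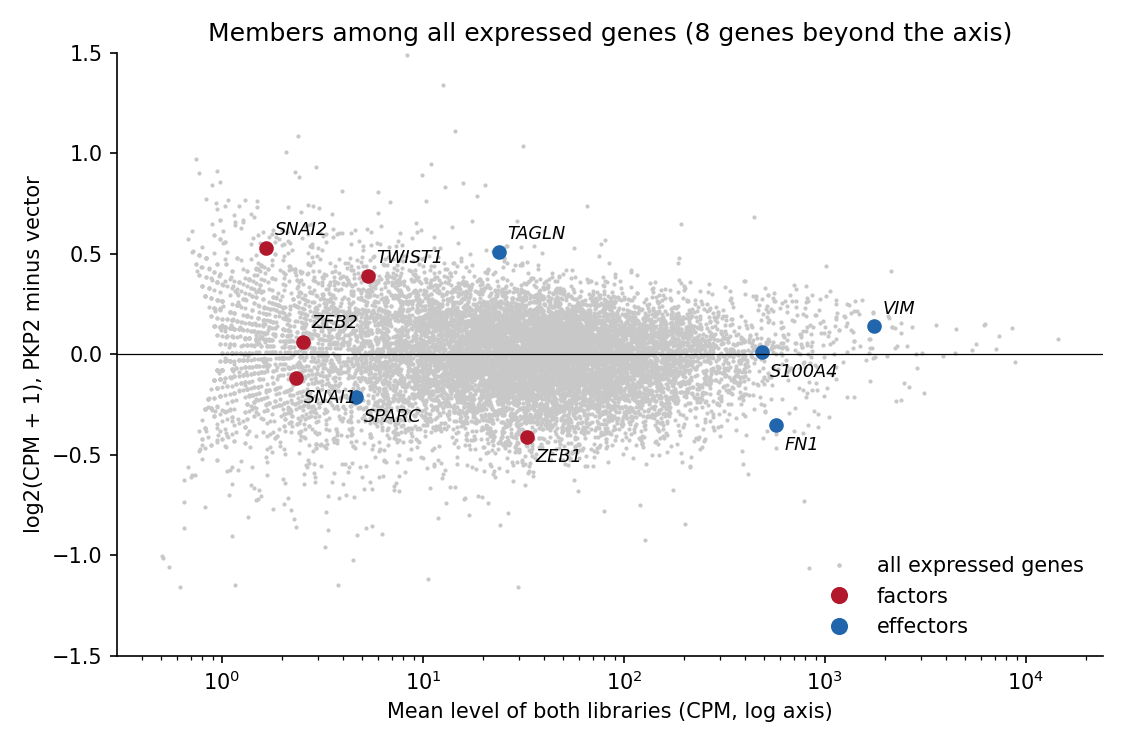
Log2 difference of each expressed gene (grey) against its mean level in CPM on a log axis, with factors in red and effectors in blue; 8 genes lie beyond the axis limit of 1.5. The members lie within the cloud of expressed genes, TAGLN and SNAI2 near its upper and ZEB1 and FN1 near its lower side.

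Set side by side as groups, factors and effectors gave nearly the same median. The factors had a median log2 difference of 0.06, with 3 positive and 2 negative, and ran from -0.41 to 0.53. The effectors had a median of 0.01, also with 3 positive and 2 negative, and ran from -0.35 to 0.51. The median over all expressed genes was 0.00, with an SD across genes of 0.23. The summed level of the factors was 41.5 CPM in the PKP2 library and 48.5 CPM in the vector library, of which ZEB1 made up the larger part. The effectors summed to 2867 CPM in the PKP2 library and 2826 CPM in the vector library. Without the length and GC trend the medians moved apart, to 0.25 for the factors and -0.19 for the effectors. Of the 25 pairs of a factor with an effector, 10 had a within-library ratio whose interval excluded 1. This count too has no share over all gene pairs beside it. Among the 10 were TWIST1 to FN1 at 1.76-fold (1.31 to 2.37) and VIM to ZEB1 at 1.47-fold (1.31 to 1.66). The length and GC trend was not removed from these ratios.

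**Figure D4:**
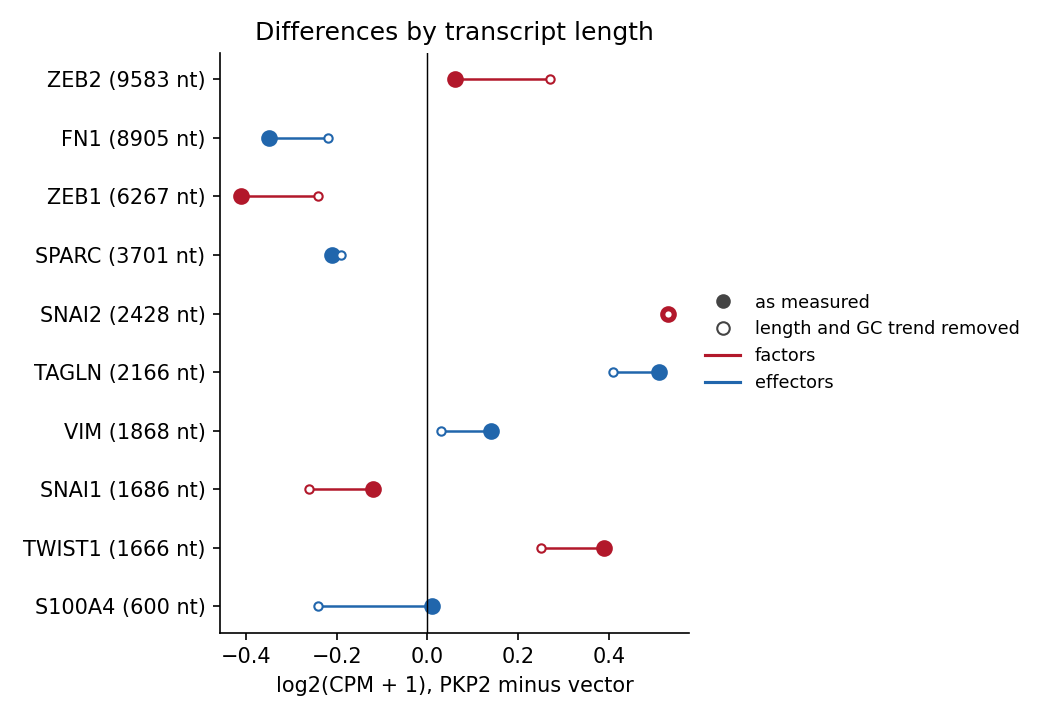
Log2 difference of each member as measured (filled) and without the length and GC trend (open), ordered by transcript length from the longest at the top, with factors in red and effectors in blue. ZEB2, FN1 and ZEB1 move right, S100A4 and SNAI1 move left, and TAGLN and SNAI2 remain above 0.32.

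Of 16 other transition factors 10 were expressed, with 4 intervals above 1 and 2 below. None reached a difference of 0.32 in size, which 12.1% of expressed genes did. Over all expressed genes 16.3% of intervals lay above 1 and 19.8% below. TWIST2, the close relative of TWIST1, had 9.94 CPM in the PKP2 library and 10.1 CPM in the vector library, a ratio of 0.982 (0.789 to 1.22), and so lay above TWIST1 in both libraries as a CPM level. The forkhead factor FOXC1 had a ratio of 0.877 (0.734 to 1.05). Corepressors and dimer partners had a median of -0.06, or -0.09 without the trend, and 0 of 18 reached the step. They had 3 intervals above 1 and 7 below, against the same 16.3% and 19.8%. The lowest of them was the acetyltransferase gene EP300, picked after its value was seen, at a ratio of 0.801 (0.749 to 0.856). Its transcript is long (9587 nucleotides), and without the trend its log2 difference was -0.19. The ZEB corepressors CTBP1 and CTBP2 had ratios of 1.05 (0.993 to 1.12) and 0.984 (0.927 to 1.05), and the histone demethylase KDM1A, a partner of SNAI1, 0.984 (0.924 to 1.05). Of 12 genes for the turnover of the Snail and TWIST proteins, 10 lay below 0, against 50.3% of expressed genes, with a median of -0.09 that was 0.02 without the trend. Of these genes 1 had an interval above 1 and 3 below, again against 16.3% and 19.8% of expressed genes. The ubiquitin ligase subunits BTRC, FBXW7 and FBXL14 had ratios of 0.943 (0.835 to 1.06), 0.935 (0.772 to 1.13) and 0.954 (0.768 to 1.19). The kinase gene PDPK1, picked after its value was seen as the 1 member of that list past the step, had a ratio of 0.757 (0.700 to 0.817). Its transcript is long (7241 nucleotides), and its log2 difference of -0.40 was -0.30 without the trend, short of the step.

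The epithelial genes that these factors repress had a median of -0.07 over 14 expressed genes of 22 on the list. Without the trend it was -0.10. Of them 5 were positive and 9 negative, where 50.3% of all expressed genes were negative. Their intervals lay above 1 for 2, against 16.3% of expressed genes, and below 1 for 5, against 19.8%. CDH1, which encodes E-cadherin and is the standard target of the factors, had 55.0 CPM (925 counts) in the PKP2 library and 63.2 CPM (1074 counts) in the vector library. Its ratio was 0.871 (0.797 to 0.952), and its log2 difference was -0.20, or -0.14 without the trend. EPCAM, an epithelial adhesion protein, had 23 and 25 counts and the claudin gene CLDN3 28 and 33 counts in the PKP2 and vector libraries, too few to show a difference of this size. PATJ, a polarity scaffold with a fractional count, was picked after its value was seen as the 1 gene of the list past the step, with a ratio of 0.737 (0.644 to 0.843). Its transcript is long (8730 nucleotides), and its log2 difference of -0.42 was -0.26 without the trend, short of the step. GRHL2 and RAB25 were not analysed here.

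The listed matrix and adhesion genes of mesenchymal cells were mostly higher in the PKP2 library. This list was chosen with earlier results of these data known, and it leaves out the matrix genes among the members. Of those, FN1 was lower in the PKP2 library, at a ratio of 0.785 (0.763 to 0.808) and a log2 difference of -0.35, or -0.22 without the trend. SPARC, at 0.835 (0.601 to 1.16), did not differ detectably. Of 20 listed, 14 were expressed. Of those 13 were positive, against 49.7% of expressed genes, and 9 had an interval above 1, against 16.3%. The list median was 0.23, and 0.27 without the trend, against 0.00 over all expressed genes. CDH2, which encodes N-cadherin, had 66.2 CPM in the PKP2 library and 56.9 CPM in the vector library, a ratio of 1.16 (1.07 to 1.27). COL1A1, a chain of type I collagen, had a ratio of 1.27 (1.01 to 1.61), and TGFBI, a secreted TGF-beta-induced matrix protein, had 1395 CPM in the PKP2 library and 1171 CPM in the vector library, a ratio of 1.19 (1.17 to 1.21). The 1 negative gene was THBS1, the matrix glycoprotein thrombospondin, picked after its value was seen, with a fractional count and a ratio of 0.765 (0.724 to 0.809). Its log2 difference of -0.38 was -0.24 without the trend. Integrin chains that bind fibronectin went both ways. ITGA5, the alpha chain of the main fibronectin receptor, had a ratio of 1.13 (1.04 to 1.22), its beta chain ITGB1 0.852 (0.839 to 0.864) and ITGAV 0.710 (0.675 to 0.746). In that order their log2 differences were 0.17, -0.23 and -0.49, and without the trend 0.16, -0.16 and -0.31.

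Relatives of the effectors gave a mixed picture. Of 15 expressed actin-binding and contractile genes, 12 were positive, against 49.7% of expressed genes, with a median of 0.17 that was 0.06 without the trend. The smooth muscle actin gene ACTA2 had a ratio of 1.14 (0.981 to 1.33), the myosin light chain gene MYL9 of 1.37 (0.652 to 2.96) from 19 and 14 counts, and the tropomyosin gene TPM1 (fractional count) had 803 CPM in the PKP2 library and 640 CPM in the vector library, a log2 difference of 0.33. The S100 genes had a median of 0.19, with 7 of 8 positive against the same 49.7%, but -0.04 without the trend, and their median transcript length was 927 nucleotides. S100A6 had a ratio of 1.12 (1.09 to 1.15), S100A10 of 1.00 (0.977 to 1.03) and S100A11 of 1.17 (1.14 to 1.21). Filament relatives and linkers of vimentin had a median of 0.03. Of 6 intervals 2 lay below 1, against 19.8% of expressed genes, and 0 above, against 16.3%. LMNA had a ratio of 1.02 (0.993 to 1.05), NES of 1.03 (0.667 to 1.60) and the linker PLEC of 0.917 (0.899 to 0.935). Of the SPARC relatives, SPOCK1, a secreted proteoglycan, was the 1 gene of these lists past a 1.5-fold step (0.58) in log2(CPM + 1). It had 13.3 CPM (223 counts) in the PKP2 library and 7.41 CPM (126 counts) in the vector library, a ratio of 1.79 (1.43 to 2.24), and its log2 difference was 0.76, or 0.84 without the trend. SMOC1 had a ratio of 1.34 (1.03 to 1.73) and SPOCK2 of 1.13 (0.693 to 1.85).

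**Figure D5:**
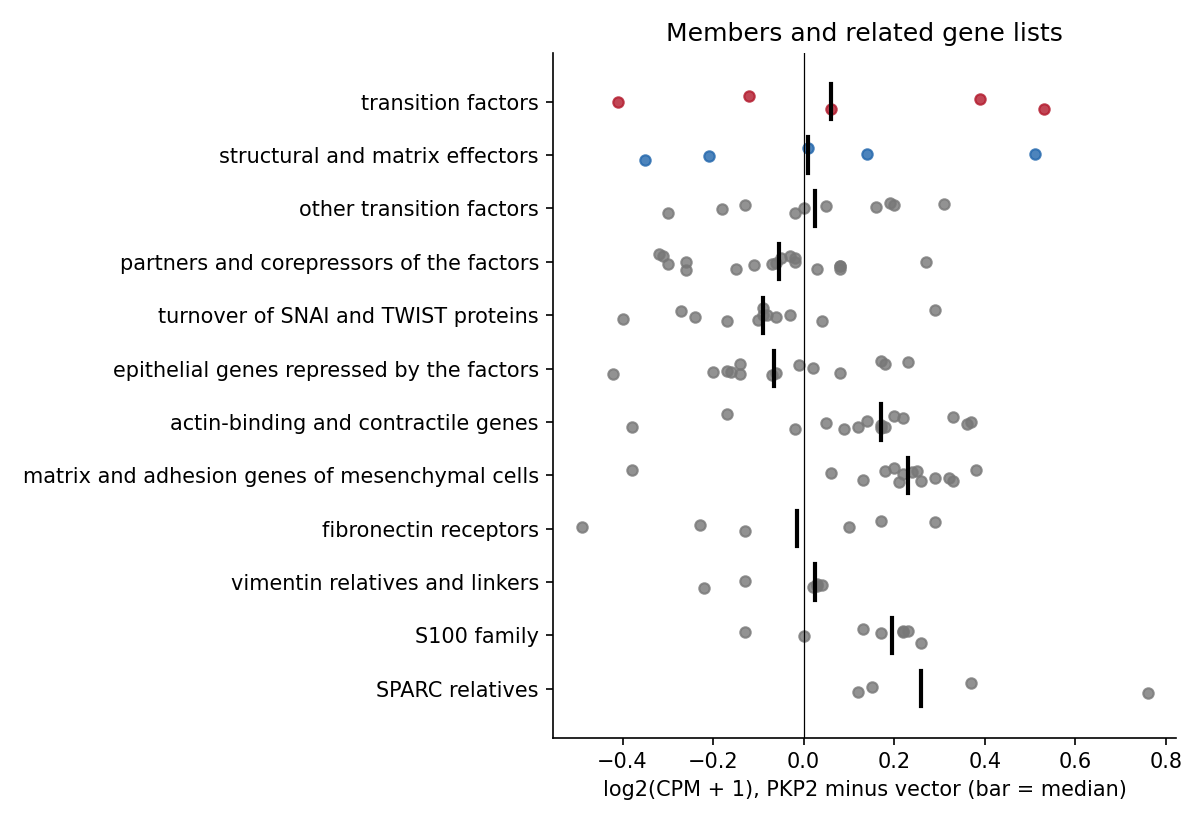
Log2 difference of each expressed gene of the members (red factors, blue effectors) and of 10 related lists (grey), with a black bar at each median. The matrix and adhesion genes lie right of 0 except THBS1, while factors and effectors both spread from about -0.4 to 0.5.

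Markers of other cell types were partly expressed. Of 9 fibroblast markers, 7 had a value and 3 were expressed, and their summed level was 14 CPM in the PKP2 library and 11.1 CPM in the vector library, most of it COL1A1 at 10.4 and 8.12 CPM in that order. All 3 expressed markers (COL1A1, THY1 and LUM) were higher in the PKP2 library, and only the interval of COL1A1 lay above 1. THY1 had 37 counts in the PKP2 library and 25 in the vector library, a ratio of 1.5 (0.877 to 2.59). Its log2 difference was 0.37. LUM had 19 and 14 counts in that order, a ratio of 1.37 (0.652 to 2.96). Of the markers under 1 CPM, PDGFRA had 3 counts in the PKP2 library and 8 in the vector library. PDGFRB had 1 count in each library, COL3A1 had 1 count in the PKP2 library and 2 in the vector library, and FAP had 0 and 1. Of 6 smooth muscle markers, 2 were expressed (ACTA2 and SMTN), with a summed level of 84.9 CPM in the PKP2 library and 69.5 CPM in the vector library. MYH11 and ACTG2 had 2 and 1 counts in the PKP2 library and 0 each in the vector library. None of the 4 endothelial markers with a value was expressed, at a summed 0.952 CPM in the PKP2 library and 0.294 CPM in the vector library. Of 2 leukocyte markers with a value, LYZ was under 1 CPM and CD68 had 82.5 CPM in the PKP2 library and 78.4 CPM in the vector library. The part of other cells in the members' levels was not tested.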

How the data were processed

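Estimated counts per gene were deposited by the authors, 1 file per library, headed as counts and listed by Entrez ID. The tools HISAT2 2.0.4, Bowtie2 and RSEM 1.2.12 and build GRCh38.p12 come from the submitters' processing notes. No source used here gives their order, the annotation, strand use or read layout. Fractional values occur in 2491 genes of the PKP2 library and 2403 of the vector library.

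From these, CPM, log2(CPM + 1) differences and CPM ratios were computed in Python 3.11.15 with scipy 1.17.1. Ratio intervals are exact 95% Clopper-Pearson intervals of counts rounded to whole numbers. RefSeq names matched 16183 of 16399 IDs. Length and GC content came from the longest protein-coding transcript in GENCODE release 29 (98.8% of expressed genes). The trend was an additive lowess fit (span 0.3, statsmodels 0.14.6). The calculation was tested on simulated counts.

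Members and lists were chosen with earlier results of these data known. Genes named are the members, PKP2, the first 3 expressed genes of each list in its written order and any gene past 1.5-fold in log2(CPM + 1); 1 gene that this rule names is not reported here. Named outside it, after their values were seen, are PCSK7, PDPK1, PATJ, THBS1, EP300 and cell type markers at low counts. Alternatives were pseudocounts of 0.1 and 5, other filters, median and TMM scaling, trend removal, and leaving out fractional counts.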

Additional observations from a re-analysis of the deposited data

How the results depend on the processing

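With 1 library per group, counting error is the only error that can be given, and the 20 to 44 counts of ZEB2, SNAI1 and SNAI2 give wide intervals. No paired analysis was possible because each group has 1 library. Filters and leaving out fractional counts keep or drop a gene without changing its value, so those settings could not move a single member. Of 75 values of single members under all the alternatives, 72 stayed close to the value as measured. Close means no further from it than the longer arm of its counting interval on the log2 scale. The other 3 came from removing the length and GC trend, which put VIM at 0.03, FN1 at -0.22 and S100A4 at -0.24. The effector median of 0.01 was 0.07 at a mean of 5 CPM or more, -0.19 with the trend removed and -0.10 without fractional counts, which leaves out TAGLN. Effector minus factor medians, -0.05 as measured, came to 0.08, -0.44 and -0.16 under the same settings. PKP2 was at 3.08 instead of 3.25 with a pseudocount of 5. Median and TMM scaling left each member's difference within 0.01 of its value. The 662 genes at least 25% higher became 184 with a pseudocount of 5, 353 at a mean of 5 CPM or more, 94 at 1.5-fold and 11 at 2-fold. The 895 genes at least 20% lower became 467 with a pseudocount of 5, 487 with the trend removed, 101 at 1.5-fold and 13 at 2-fold.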
